A study of Mus musculus with 12 samples.

Results

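The genes described here were 10 components of the mammalian circadian clock, including both REV-ERB receptors: Arntl, Clock, Per1, Per2, Per3, Cry1, Cry2, Nr1d1, Nr1d2 and Bhlhe40. They were taken by name from 24347 gene entries in each of 12 RNA-seq libraries, and all 10 were found once. All 10 also passed the filter on low values, which asked for 0.5 FPKM or more in 3 or more libraries and left 11924 genes for testing. FPKM is the number of fragments per kilobase of gene model, scaled to the fragments of the library.

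The libraries came from HT22 cells, an immortalized line derived from mouse hippocampal neurons. Cells were given control siRNA (siControl) or Ncoa4 siRNA (siNCOA4) by lipid transfection, and each was kept in normal iron or in 100 µM deferoxamine (DFO), an iron chelator, for 24 h. This gave 4 groups of 3 biological replicates, siControl, siNCOA4, siControl+DFO and siNCOA4+DFO. NCOA4 is the receptor that carries ferritin to the lysosome, where its iron is released. The design asked how cells depleted of NCOA4, iron or both differed in gene expression. The study used the same Ncoa4 siRNA in all knockdowns, so effects of NCOA4 loss and off-target effects of this siRNA cannot be told apart. Each culture was sampled at a single time, so that a shift in the phase of a rhythm and a change in mean level cannot be told apart.

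The clock is a transcriptional feedback loop. The proteins of Arntl (BMAL1) and Clock form a dimer that activates the Per, Cry, Nr1d1, Nr1d2 and Bhlhe40 genes through E-boxes. PER and CRY proteins return to the nucleus and inhibit the dimer, BHLHE40 (DEC1) competes at E-boxes, and the nuclear receptors REV-ERBα (Nr1d1) and REV-ERBβ (Nr1d2) repress Arntl through ROR response elements. REV-ERB proteins bind heme as a ligand, which ties this arm of the loop to iron. Bhlhe40 is also a known target of hypoxia-inducible factors, which are stabilised when iron is chelated.

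In the GENCODE annotation of GRCm38 (mm10), all 10 were protein-coding genes. Nr1d1 lay on the minus strand at chr11:98767932-98775333, Nr1d2 on the minus strand at chr14:18204054-18239127 and Bhlhe40 on the plus strand at chr6:108660629-108666925. Arntl was on the plus strand at chr7:113207465-113314126 and Clock on the minus strand at chr5:76209868-76304792. The 3' part of Nr1d1 overlapped Thra, the thyroid hormone receptor α gene on the opposite strand, with 263 shared exonic bases of the 3077 exonic bases of Nr1d1. Exons of Cry2 shared 295 bases with D930015M05Rik, listed at 0 in every library, and those of Bhlhe40 shared 118 bases with 0610040F04Rik, at most 0.185 FPKM, both on the opposite strand.

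Promoter windows of 300 bases, 250 before and 50 after an annotated start, were taken from RefSeq (GRCm38.p6) for 8 members, in 12 windows. Per2 and Bhlhe40 had no entry. Each window was searched on both strands for the E-box CACGTG, the ROR response element core TAGGTCA, the D-box TTATGNAA, which PAR bZIP factors such as DBP bind, and the hypoxia response element core ACGTG, which is contained in the E-box. Of 32851 windows in the table, 7.15% held CACGTG, 2.61% TAGGTCA, 3.38% TTATGNAA and 19.6% ACGTG. The windows printed here belong to the members with the largest differences of their class and to Cry1, and capitals mark any of the 4 motifs.
Nr1d1, chr11:98775328-98775627, minus strand: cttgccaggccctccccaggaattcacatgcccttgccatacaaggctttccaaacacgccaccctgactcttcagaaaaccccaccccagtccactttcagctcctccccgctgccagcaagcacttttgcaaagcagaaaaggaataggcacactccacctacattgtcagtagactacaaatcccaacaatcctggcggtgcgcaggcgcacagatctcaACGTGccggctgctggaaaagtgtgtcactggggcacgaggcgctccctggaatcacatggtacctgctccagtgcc
Arntl, chr7:113207261-113207560, plus strand: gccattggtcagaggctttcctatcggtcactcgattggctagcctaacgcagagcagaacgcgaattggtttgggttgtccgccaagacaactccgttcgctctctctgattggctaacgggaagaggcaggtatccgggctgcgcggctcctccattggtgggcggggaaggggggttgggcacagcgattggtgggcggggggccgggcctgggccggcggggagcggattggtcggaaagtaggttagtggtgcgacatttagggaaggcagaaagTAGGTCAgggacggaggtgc
Per3, chr4:151044616-151044915, minus strand: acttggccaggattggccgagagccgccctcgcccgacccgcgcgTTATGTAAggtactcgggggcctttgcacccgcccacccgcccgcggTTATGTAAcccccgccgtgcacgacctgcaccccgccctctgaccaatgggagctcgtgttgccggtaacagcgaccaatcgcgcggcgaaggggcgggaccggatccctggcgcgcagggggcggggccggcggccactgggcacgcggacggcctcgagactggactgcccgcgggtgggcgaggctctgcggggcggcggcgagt
Cry1, chr10:85185005-85185304, minus strand: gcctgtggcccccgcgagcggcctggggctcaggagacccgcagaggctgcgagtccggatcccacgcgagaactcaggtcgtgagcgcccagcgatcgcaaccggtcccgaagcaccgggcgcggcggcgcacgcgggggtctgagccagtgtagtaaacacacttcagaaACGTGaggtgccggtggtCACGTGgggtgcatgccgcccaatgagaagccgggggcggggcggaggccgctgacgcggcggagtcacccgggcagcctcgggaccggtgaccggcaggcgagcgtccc

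The Nr1d1 window held a single ACGTG, 27 bases before the start. The second Arntl window held TAGGTCA 30 bases after its start, the Per3 window held TTATGNAA at 205 and at 158 bases before the start, and the Cry1 window held CACGTG at 60 bases and a further ACGTG at 78 bases before the start. The first of the Per1 windows held CACGTG and TTATGNAA at 166 and 24 bases before its start, and the Cry2 window held ACGTG at 165 bases. The windows of Nr1d2 and Clock, the first Arntl window and the second Per1 window held none of the 4 motifs. Only exact matches were counted, so near matches were not marked, such as TAGGTTA in both Arntl windows, close to TAGGTCA. A window without a match can therefore hold a variant of a motif. A match is a run of letters and not a measured binding site.

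Ncoa4, the siRNA target, lay at 6.22 ± 0.222 FPKM in siControl and 0.871 ± 0.0929 in siNCOA4, and at 8.18 ± 0.600 in siControl+DFO and 1.24 ± 0.363 in siNCOA4+DFO (mean ± SD, n = 3). Tfrc, the transferrin receptor gene whose mRNA is stabilised in low iron, averaged 70.3 FPKM in siControl, 72.0 in siNCOA4, 328 in siControl+DFO and 240 in siNCOA4+DFO. The tables carried no read totals, but low FPKM values were whole multiples of a step in each library, which gave relative depths from 0.928 to 1.41 with siControl replicate 1 set to 1. The label of hippocampal neuron cells was checked on 12 neuron markers. Slc17a6 and Gad1 were at 0 in every library, Rbfox3, Map2, Snap25, Syt1 and Nefl stayed below 0.2 FPKM, and only Tubb3, Eno2 and Camk2a were high enough to be tested. The neuron markers summed to 11.6 to 14.6 FPKM in siControl, 9.57 to 10.9 in siNCOA4, 33.5 to 36.3 in siControl+DFO and 21.3 to 28.8 in siNCOA4+DFO. Of 4 fibroblast markers 3 were tested, and their sums were 1273 to 1568, 722 to 925, 345 to 461 and 392 to 474 FPKM in the same order. Microglia markers, of which only Tmem119 was tested and Aif1, Cx3cr1 and Ptprc had a median of at most 0.0524 FPKM, summed to 9.98 to 11.8, 3.79 to 5.65, 1.09 to 1.73 and 0.632 to 2.15 FPKM, and astrocyte markers to 0.336 to 0.451, 0.817 to 1.14, 0.668 to 1.35 and 2.85 to 3.26. These sums moved with the groups, as the clock genes did, and their part in the results below was not tested. Fewer cells of a type and less RNA per cell cannot be told apart in bulk RNA.

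In siControl cells Bhlhe40 had the highest level per length of the 10 members, at 28.5 ± 6.36 FPKM, followed by Clock at 16.7 ± 0.942 and Nr1d2 at 11.6 ± 0.516. Per1, Arntl, Per3, Cry1, Nr1d1 and Cry2 lay close together, between 4.73 and 6.67 FPKM. Per2 was lowest at 2.01 ± 0.222. The plot of levels by library shows that the spread of replicates was small beside the group differences for Nr1d1, Nr1d2 and Arntl in siControl+DFO and wide for Per1 and Cry2.

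**Figure D1:**
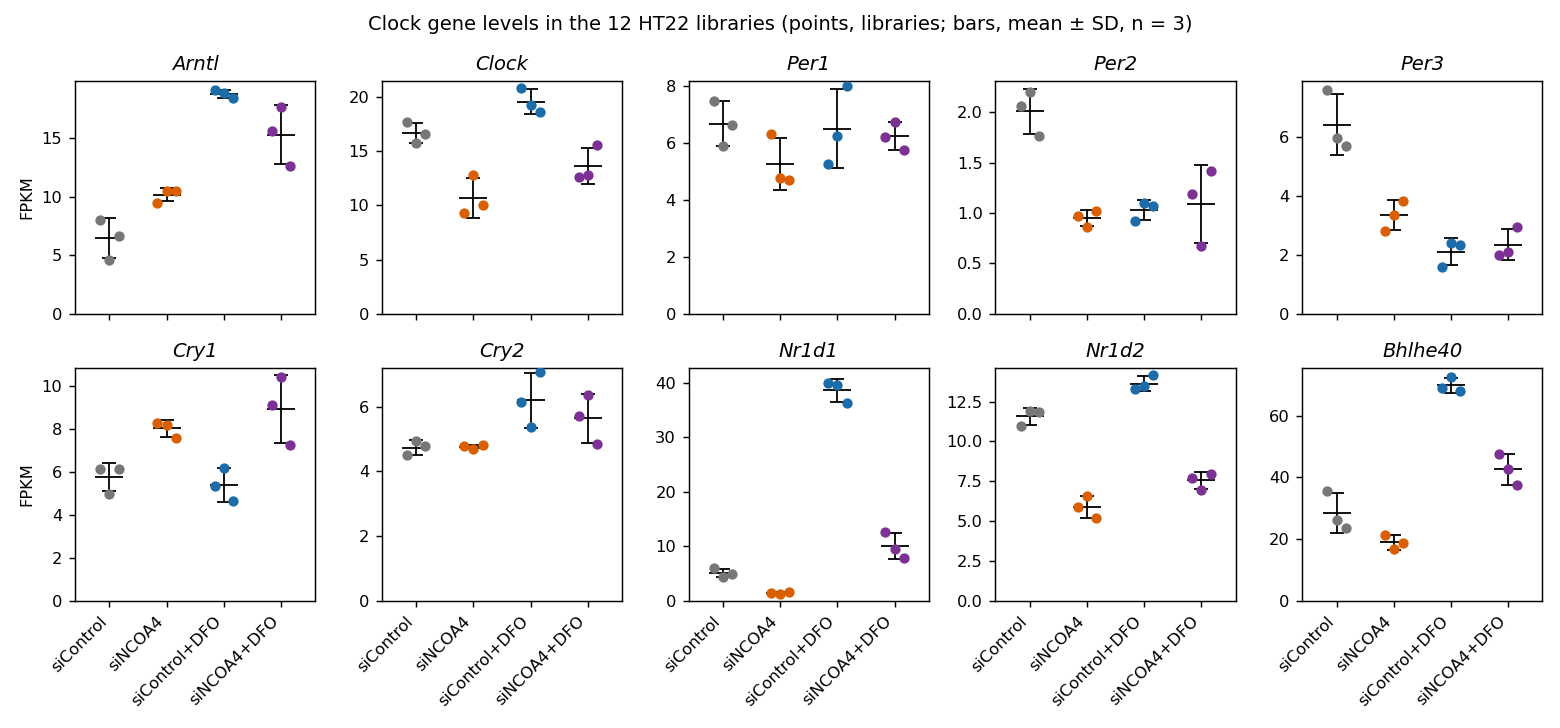
FPKM of the 10 clock genes in each library (points) by group, with the group mean and SD as bars (n = 3). Nr1d1 ran from 1.19 FPKM in siNCOA4 to 40.0 FPKM in siControl+DFO, while the 4 groups of Per1 overlapped.

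Differences were tested with limma on log2(FPKM + 0.1) and p-values were adjusted over the 11924 genes by the Benjamini-Hochberg method. Fold changes are on this scale, which understates those of low genes. The p-values measure the spread between these libraries. Groups without overlap were common. Of all genes tested, 32.6% had no overlap with siNCOA4 and 60.7% with DFO. The share was 54.8% with both treatments, 52.6% with DFO in siNCOA4 cells and 34.8% with siNCOA4 among DFO-treated cells. These shares stand beside each lack of overlap given below.

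Both REV-ERB genes were lower with siNCOA4, and Nr1d1 was several-fold higher with DFO. Nr1d1 was at 5.99, 4.47 and 4.90 FPKM in the siControl replicates and at 1.53, 1.19 and 1.68 in siNCOA4. In siControl+DFO it was at 40.0, 39.7 and 36.3 FPKM and in siNCOA4+DFO at 12.7, 9.56 and 7.94. No group of Nr1d1 overlapped another, and the order was siNCOA4, siControl, siNCOA4+DFO and siControl+DFO. Nr1d1 fell 3.34-fold with siNCOA4 (log2 fold change -1.74, SE 0.18, adjusted p = 1.13e-04) and rose 7.47-fold with DFO (log2 2.90, SE 0.18, adjusted p = 1.03e-07). Among DFO-treated cells it was 3.88-fold lower with siNCOA4 (log2 -1.96, adjusted p = 7.97e-05), and among siNCOA4 cells it was 6.44-fold higher with DFO (log2 2.69, adjusted p = 4.71e-07). With both treatments it stayed above siControl by 0.94 log2 units (adjusted p = 9.84e-04). The neighbours in the order therefore each differed beyond their spread.

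The fragments behind Nr1d1 could be recovered from the FPKM steps. They numbered 48, 45 and 46 in siControl, 16, 12 and 19 in siNCOA4, 340, 397 and 342 in siControl+DFO and 113, 92 and 59 in siNCOA4+DFO. The lowest count, 12, had an exact Poisson 95% interval of 6.20 to 21.0, which covers counting error only and lay below all siControl counts. Thra, which shares exonic bases with Nr1d1 on the other strand, moved differently with DFO, from 39.0 FPKM in siControl to 17.4 in siControl+DFO and 18.0 in siNCOA4+DFO, and was at 26.2 in siNCOA4. Thra fell with DFO by 1.16 log2 units (adjusted p = 3.52e-06), where Nr1d1 rose, and with siNCOA4 by 0.58 (adjusted p = 0.0063). The strand setting of the counting is not given in the sources used here, so that fragments from the shared bases could have been given to either gene.

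Nr1d2, the paralog of Nr1d1, was lower in every siNCOA4 library. It was at 11.0, 11.9 and 11.9 FPKM in siControl and at 5.90, 6.57 and 5.20 in siNCOA4. It was at 13.3, 13.5 and 14.1 FPKM in siControl+DFO and at 7.73, 6.95 and 7.99 in siNCOA4+DFO. All siNCOA4 libraries, with or without DFO, lay below all siControl libraries. Nr1d2 fell 1.96-fold with siNCOA4 (log2 -0.97, SE 0.11, adjusted p = 1.77e-04) and was 1.80-fold lower with siNCOA4 among DFO-treated cells (log2 -0.84, adjusted p = 6.27e-04). The DFO difference in siControl cells was 0.23 (95% confidence interval -0.0036 to 0.47, adjusted p = 0.0893). In siNCOA4 cells it was 0.36 (adjusted p = 0.0193).

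The activators moved in different ways. Arntl was at 8.04, 4.62 and 6.67 FPKM in siControl, at 9.50, 10.5 and 10.5 in siNCOA4, at 19.1, 18.9 and 18.4 in siControl+DFO and at 15.6, 17.6 and 12.6 in siNCOA4+DFO. Its siControl libraries were the lowest and its siControl+DFO libraries the highest, with no overlap between any of these groups. Arntl rose 2.96-fold with DFO (log2 1.56, SE 0.18, adjusted p = 1.23e-05) and 1.61-fold with siNCOA4 (log2 0.68, adjusted p = 0.0263). Clock, its partner, was at 17.7, 15.8 and 16.6 FPKM in siControl and at 9.27, 12.8 and 10.1 in siNCOA4. It was at 20.9, 19.3 and 18.6 FPKM in siControl+DFO and at 12.6, 12.8 and 15.6 in siNCOA4+DFO. Clock fell with siNCOA4 by 0.65 log2 units (adjusted p = 0.00667), and by 0.52 among DFO-treated cells (adjusted p = 0.0156). Its DFO difference in siControl cells was 0.23 (95% confidence interval -0.05 to 0.51, adjusted p = 0.145).

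Of the period genes, Per2 and Per3 were lower in all 3 treated groups than in siControl, and Per1 passed in no comparison. Per3 was at 7.59, 5.97 and 5.68 FPKM in siControl and at 2.82, 3.37 and 3.84 in siNCOA4. With DFO it was at 1.58, 2.42 and 2.33 FPKM in siControl cells and at 2.00, 2.09 and 2.95 in siNCOA4 cells. Every treated library lay below every siControl library. Per3 fell 2.97-fold with DFO (log2 -1.57, SE 0.22, adjusted p = 8.22e-05), 1.89-fold with siNCOA4 (log2 -0.92, adjusted p = 0.0202) and 2.68-fold with both (log2 -1.42, adjusted p = 2.06e-04). Per3 lies within the Camta1 gene on the same strand without shared exonic bases, and Camta1 was between 2.29 and 4.70 FPKM.

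Per2 was at 2.07, 2.20 and 1.76 FPKM in siControl and at 0.966, 0.865 and 1.02 in siNCOA4. It was at 0.920, 1.10 and 1.07 FPKM in siControl+DFO and at 1.19, 0.668 and 1.42 in siNCOA4+DFO. The groups treated with siNCOA4, DFO or both overlapped each other and lay below siControl, by 1.01, 0.90 and 0.87 on the log2 scale (adjusted p = 0.0379, 0.0173 and 0.0213). These levels rested on 36 to 48 fragments per library in siControl and 14 to 25 in the other groups. Per1 was at 7.48, 5.91 and 6.64 FPKM in siControl and at 6.33, 4.78 and 4.72 in siNCOA4. It was at 5.25, 6.26 and 7.99 FPKM in siControl+DFO and at 6.21, 6.74 and 5.77 in siNCOA4+DFO. The Per1 groups overlapped throughout, with 95% confidence intervals of -0.72 to 0.04 for siNCOA4 and -0.43 to 0.33 for DFO.

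Of the cryptochrome genes, Cry1 was higher with siNCOA4 under DFO and Cry2 was higher with DFO. Cry1 was at 6.15, 4.99 and 6.13 FPKM in siControl and at 8.27, 8.21 and 7.59 in siNCOA4. In siControl+DFO it was at 5.37, 6.21 and 4.64 FPKM and in siNCOA4+DFO at 9.13, 10.4 and 7.24. The siNCOA4 libraries of Cry1 lay above the siControl libraries both without and with DFO. Cry1 rose with siNCOA4 among DFO-treated cells by 0.71 log2 units (SE 0.16, adjusted p = 0.0105), whereas the difference of 0.48 in normal iron did not pass (95% confidence interval 0.13 to 0.82, adjusted p = 0.0727). In a fit of the DFO-treated groups alone Cry1 did not pass (adjusted p = 0.0518). Cry2 was at 4.49, 4.93 and 4.78 FPKM in siControl, at 4.80, 4.70 and 4.80 in siNCOA4, at 6.15, 5.37 and 7.06 in siControl+DFO and at 5.72, 6.35 and 4.84 in siNCOA4+DFO. Cry2 rose with DFO in siControl cells by 0.37 log2 units (adjusted p = 0.0429), differed by 0.23 with DFO in siNCOA4 cells (adjusted p = 0.219), and its siNCOA4 difference was 0.01 (95% confidence interval -0.30 to 0.32).

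Bhlhe40 was at 35.7, 26.3 and 23.5 FPKM in siControl and at 21.5, 16.7 and 18.7 in siNCOA4. It was at 68.9, 72.6 and 68.1 FPKM in siControl+DFO and at 47.7, 42.6 and 37.6 in siNCOA4+DFO. The groups did not overlap, as was common among all genes (32.6% with siNCOA4, 60.7% with DFO). They followed the order seen for Nr1d1. Bhlhe40 rose 2.48-fold with DFO (log2 1.31, SE 0.14, adjusted p = 1.04e-05) and 2.24-fold with DFO among siNCOA4 cells (log2 1.17, adjusted p = 4.62e-05). It fell with siNCOA4 by 0.57 (adjusted p = 0.0245) and, among DFO-treated cells, by 0.72 (adjusted p = 0.00636). Over the 12 libraries the log2 levels of Bhlhe40 and Nr1d1 had a Pearson r of 0.981, those of Clock and Nr1d2 of 0.935 and those of Arntl and Per3 of -0.882. These are descriptions over libraries that share the 4 groups.

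**Figure D2:**
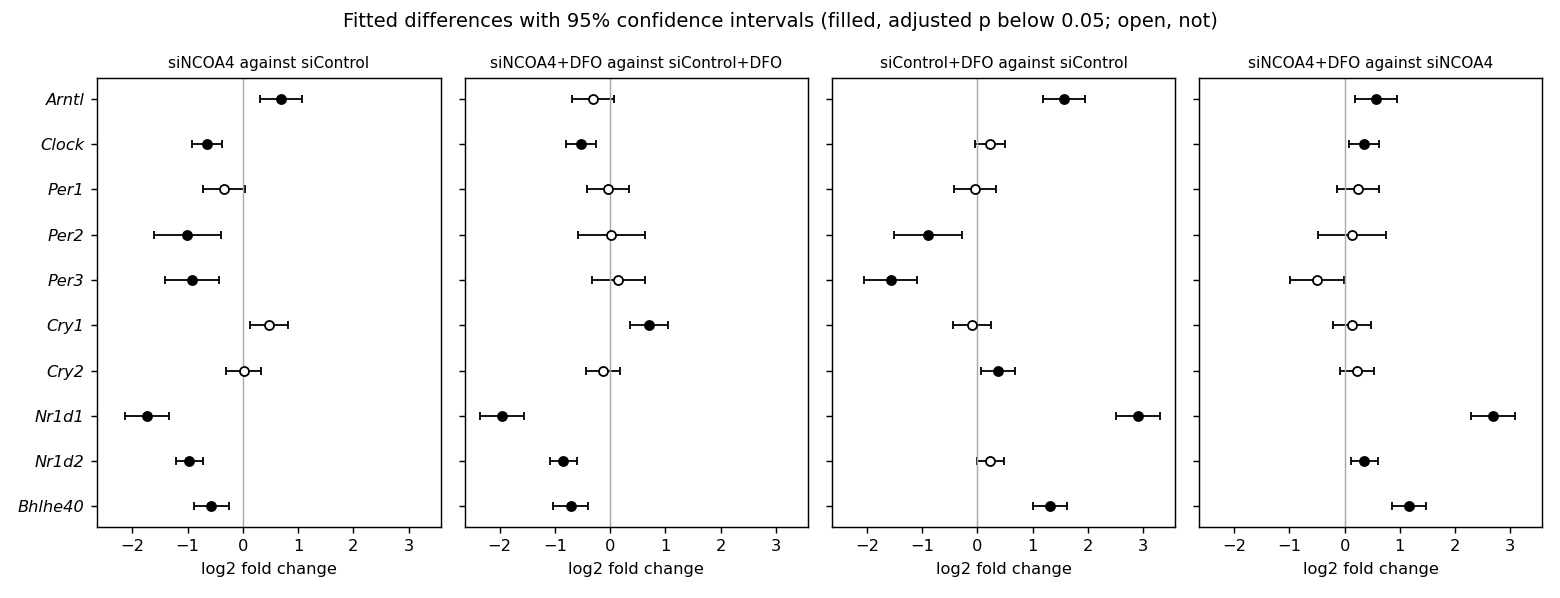
Fitted log2 fold change of each clock gene in 4 comparisons, with its 95% confidence interval. Filled points had an adjusted p below 0.05. Nr1d1 lay lowest in both siNCOA4 comparisons (-1.74 and -1.96) and highest in both DFO comparisons (2.90 and 2.69).

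With siNCOA4 in normal iron, 6 of the 10 clock genes fell (Clock, Per2, Per3, Nr1d1, Nr1d2 and Bhlhe40) and 1 rose (Arntl). Of all genes tested, 7.21% fell and 4.52% rose. The median log2 fold change of the members was -0.61, beside 0.00 over all genes. Nr1d1 and Per2 also passed a fold change of 2, as did 1.78% of all genes. Leaving out 1 library ended 4 of these calls. Arntl lost its call without siControl replicate 2 or any siNCOA4 replicate (adjusted p = 0.0504 to 0.0857), and Bhlhe40 without siControl replicate 1 or siNCOA4 replicate 2 or 3 (0.0706 to 0.101). Per3 lost it without siControl replicate 1 or siNCOA4 replicate 1 or 2 (0.0603 to 0.0774), and Per2 without any siControl or siNCOA4 replicate or siControl+DFO replicate 2 or 3 (0.0513 to 0.116). Cry1 passed without siNCOA4+DFO replicate 3 (adjusted p = 0.0415).

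With DFO in siControl cells, 4 members rose (Arntl, Cry2, Nr1d1 and Bhlhe40) and 2 fell (Per2 and Per3). DFO moved a large part of the transcriptome, and 27.7% of all genes rose while 25.7% fell, so that the number of members passing was near that background. Arntl, Per3, Nr1d1 and Bhlhe40 passed a fold change of 2, against 18.8% of all genes. The median of the absolute log2 fold change was 0.63 for the members and 0.47 for all genes. Per2 lost its call without siControl replicate 2 or siControl+DFO replicate 1 (adjusted p = 0.0584 and 0.0531). Cry2 lost it without any siControl or siNCOA4 replicate, siControl+DFO replicate 1 or 3 or siNCOA4+DFO replicate 1 (0.0520 to 0.162).

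With both treatments, relative to siControl, Arntl, Cry1, Nr1d1 and Bhlhe40 rose and Per2, Per3 and Nr1d2 fell. Arntl was higher by 1.26 log2 units (adjusted p = 8.81e-05), Cry1 by 0.62 (0.00638) and Bhlhe40 by 0.60 (0.00447), and Nr1d2 was lower by 0.61 (5.79e-04). Of all genes 25.4% rose and 23.4% fell, and the 4 and 3 members passing were near that background. Arntl and Per3 passed a fold change of 2, against 15.2% of all genes. The siControl libraries are shared with the comparisons above. The study reports changed morphology and lower viability of cells given both treatments, and no effect on viability of either treatment alone. The part of this in the levels was not tested. Per2 lost its call without siControl replicate 1 or 2 or siNCOA4+DFO replicate 2 (adjusted p = 0.0532 to 0.0894), and Clock, at -0.29 (adjusted p = 0.0738), passed without siNCOA4 replicate 2 (0.0374) or siNCOA4+DFO replicate 3 (0.0271).

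DFO was also compared within siNCOA4 cells, where Arntl, Clock, Nr1d1, Nr1d2 and Bhlhe40 rose and no member fell. Arntl rose by 0.57 log2 units (adjusted p = 0.0198) and Clock by 0.35 (0.0398). Over all genes, 23.1% rose and 19.6% fell. Nr1d1 and Bhlhe40 passed a fold change of 2, against 11.4% of all genes. Per3, at -0.50, did not pass (adjusted p = 0.0883) but did without siNCOA4+DFO replicate 3 (0.0346). Arntl lost its call without siNCOA4 replicate 1 or siNCOA4+DFO replicate 1 or 2 (adjusted p = 0.0548 to 0.0822) and Nr1d2 without siNCOA4 replicate 3 or siNCOA4+DFO replicate 1 or 3 (0.0518 to 0.0866). Clock lost it without siControl replicate 3, siNCOA4 replicate 1 or 3, siControl+DFO replicate 2 or siNCOA4+DFO replicate 2 or 3 (0.0512 to 0.154).

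Among DFO-treated cells, siNCOA4 lowered Clock, Nr1d1, Nr1d2 and Bhlhe40 and raised Cry1. Of all genes, 10.2% fell and 6.22% rose. Nr1d1 passed a fold change of 2, against 2.09% of all genes. Per2 and Per3 differed by 0.02 and 0.15, with 95% confidence intervals of -0.59 to 0.63 and -0.33 to 0.63. Arntl, at -0.31 (adjusted p = 0.25), did not pass although all 3 siNCOA4+DFO libraries lay below all 3 siControl+DFO libraries. Clock lost its call without siControl+DFO replicate 1 (adjusted p = 0.0572) or siNCOA4+DFO replicate 2 (0.0521).

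The siNCOA4 differences without and with DFO rest on separate libraries and were set against each other as an interaction. No member passed it, against 0.671% of all genes with a higher and 1.43% with a lower difference under DFO. In simulated data the interaction test recovered 47.4% of differences of 1 log2 unit, so that real differences of this size can be missed. For Nr1d1 the interaction was -0.21 (95% confidence interval -0.78 to 0.35), for Nr1d2 0.12 (-0.21 to 0.46), for Bhlhe40 -0.15 (-0.59 to 0.30) and for Clock 0.12 (-0.27 to 0.51), all on the log2 scale. Unadjusted p-values were below 0.05 for 3 members, as for 2167 of all genes. These were Arntl (-0.99, SE 0.25, adjusted p = 0.0618), Per3 (1.07, SE 0.31, adjusted p = 0.0973) and Per2 (1.03, SE 0.40, adjusted p = 0.194). Without siControl replicate 1, Arntl passed (adjusted p = 0.0329).

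**Figure D3:**
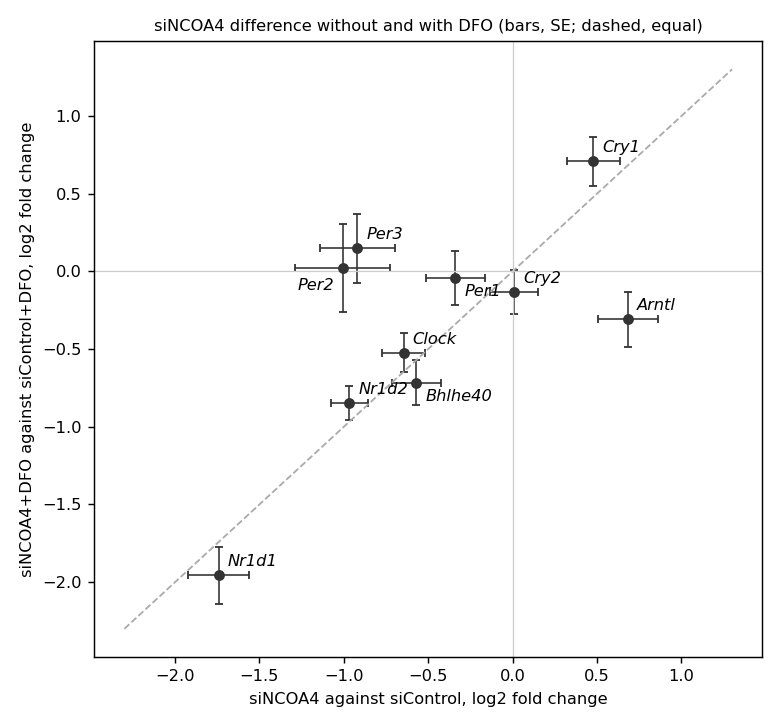
Log2 fold change of each clock gene with siNCOA4 in normal iron (horizontal axis) and under DFO (vertical axis), with SE bars and a dashed line of equal values. Nr1d1, Nr1d2, Clock and Bhlhe40 lay below 0 on both axes, and Arntl was at 0.68 and -0.31.

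Other genes of the clock were followed on lists of paralogs, ROR receptors, further repressors, PAR bZIP output factors, kinases and ubiquitin ligases, REV-ERB corepressors and output genes. The name other clock genes covers all of these lists, including the output genes and REV-ERB targets. Of 31 listed, 23 could be tested, while Npas2, Arntl2, Rora, Rorb, Bhlhe41, Hlf, Fbxl21 and Elovl3 were too low. With siNCOA4, 3 rose and 4 fell, beside 4.52% and 7.21% of all genes. With DFO 11 rose and 7 fell (all genes 27.7% and 25.7%), and with both treatments 8 rose and 8 fell (25.4% and 23.4%). With DFO in siNCOA4 cells 11 rose and 4 fell (23.1% and 19.6%), and with siNCOA4 among DFO-treated cells none rose and 6 fell (6.22% and 10.2%). Their median log2 fold change was -0.07 with siNCOA4 and 0.35 with DFO, beside medians of 0.00 and -0.01 over all genes.

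The output factors Dbp and Tef, activators that bind D-boxes, fell with siNCOA4. Dbp went from 5.80 ± 0.461 FPKM in siControl to 2.29 ± 0.524 in siNCOA4, 2.22 ± 0.680 in siControl+DFO and 1.39 ± 0.373 in siNCOA4+DFO, with log2 fold changes of -1.33 (adjusted p = 0.00896), -1.39 and -2.02 from siControl. Tef went from 21.0 ± 1.22 FPKM to 8.87 ± 0.670, 16.2 ± 0.962 and 16.5 ± 0.666 in the same order, and fell by 1.24 log2 units with siNCOA4 and by 0.38 with DFO. Nfil3, a repressor at D-boxes, rose with DFO by 1.16 log2 units, from 10.2 to 23.1 FPKM.

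Of 7 kinase and ligase genes tested, which set the stability of PER and CRY proteins, 1 rose and 2 fell with siNCOA4, and 4 rose and 1 fell with DFO. Of all genes, 4.52% rose and 7.21% fell with siNCOA4, and 27.7% rose and 25.7% fell with DFO. Csnk1e, a kinase gene for PER proteins, fell with siNCOA4 by 0.33 and rose with DFO by 0.72, and Gsk3b fell with siNCOA4 by 0.38. Fbxw11 rose with DFO by 0.57 and Btrc fell by 0.43, a call that Btrc lost without siControl replicate 1 or 2 or siControl+DFO replicate 1 or 3 (adjusted p up to 0.0783). On the list of further repressors 3 genes were tested. Timeless and Tipin, placed on this list, rose with DFO by 0.43 and 0.35, and repression by their proteins was not measured. Of the 4 REV-ERB corepressor genes none passed with siNCOA4, and with DFO Tbl1xr1 fell by 1.60, Ncor1 by 0.40 and Tbl1x by 0.38. Of the 5 output genes and REV-ERB targets tested, 2 rose and none fell with siNCOA4, beside 4.52% and 7.21% of all genes. Ccl2 rose by 1.20 with siNCOA4 (adjusted p = 0.00134) and by 3.48 with DFO. Il6 went from between 0 and 0.347 FPKM in siControl to between 0.495 and 1.06 in siNCOA4 and between 7.09 and 12.8 in siControl+DFO, and its siNCOA4 call was lost under 10 of 21 alternatives (adjusted p up to 0.224). With DFO 4 of the 5 rose, beside 27.7% of all genes, while Wee1 fell by 1.22.

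**Figure D4:**
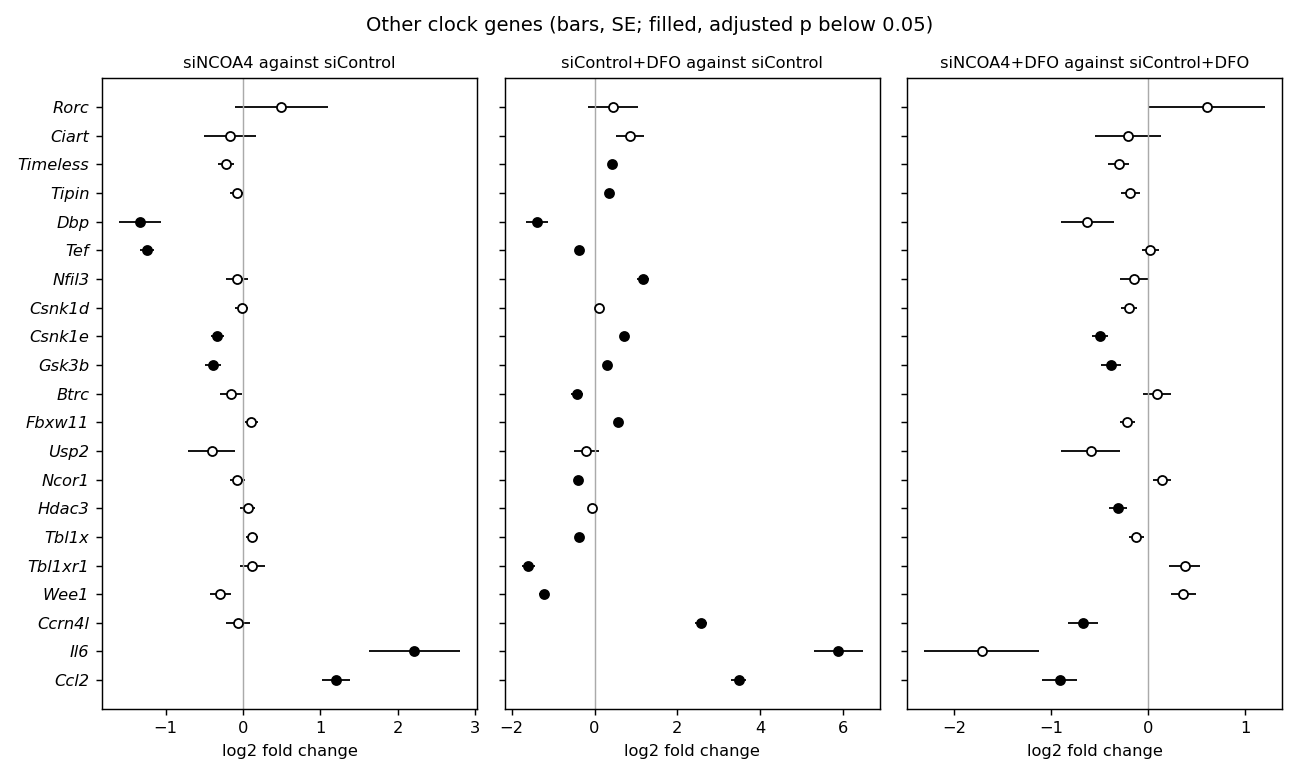
Log2 fold change with SE of 21 of the other clock genes tested, in 3 comparisons, each with its own scale. Filled points had an adjusted p below 0.05. Dbp and Tef were the genes with the largest falls with siNCOA4 (-1.33 and -1.24).

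Heme is the ligand of the REV-ERB proteins, and 3 of its enzymes were measured beside them. With siNCOA4 none of the 3 passed. Alas1, the first enzyme of heme synthesis, differed by 0.43 with siNCOA4 (adjusted p = 0.0681) and by 0.39 with DFO (adjusted p = 0.0344), and its DFO call was lost without siControl replicate 1 or siControl+DFO replicate 2 (adjusted p up to 0.146 over the alternatives). With DFO, Fech, which inserts iron to form heme, fell by 0.77, and Hmox1, which breaks heme down, rose by 3.06. Of 9 targets of hypoxia-inducible factors tested, 8 rose with DFO, among them Ndrg1 (3.16), Vegfa (2.11) and Slc2a1 (2.07), beside 27.7% of all genes. With siNCOA4 5 fell, beside 7.21% of all genes. Ndrg1 (-0.85) and Pgk1 (-0.62) kept these calls under all 21 alternatives, whereas Vegfa (-0.34), Bnip3 (-0.35) and Pdk1 (-0.35) lost them under 10, 11 and 14 (adjusted p up to 0.142).

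The genes whose log2 levels over the 12 libraries were most like those of Nr1d1 were Btg1, Zfp36l2 and Tpi1, with r of 0.992, 0.989 and 0.989. For Bhlhe40 they were Ticrr, Kdm6b and Nfkb2 (0.993, 0.990 and 0.988), and for Nr1d2 Strap, Ankfy1 and Kdelr3 (0.983, 0.970 and 0.970). The points share the 4 groups, and 6365 genes passed between siControl+DFO and siControl.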

How the data were processed

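Total RNA of 12 HT22 cultures was made into libraries with a stranded kit for low input. The authors deposited 1 table of FPKM values per library, and the submitters' processing notes name Trimmomatic 0.33, FastQC, HISAT2 2.1.0, featureCounts, edgeR and the build mm10, with the annotation and the counting strand not given in the sources used here. Groups were taken from the sample titles. The members and gene lists were chosen with earlier results of these data known.

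Of 24347 entries, 24343 had a unique name. Genes reaching 0.5 FPKM in 3 or more libraries were fitted as log2(FPKM + 0.1) in a means model over all 12 libraries with limma 3.58.1 in R 4.3.3, with empirical Bayes moderation and a mean-variance trend (degrees of freedom 8 residual, 4.07 prior). The Benjamini-Hochberg adjustment was made over all genes of a comparison. The study's methods name edgeR, which was not used since FPKM are not counts. Fragments were recovered where all 12 values of a gene were multiples of its step within 0.2 of a fragment, which held for 6 members. Fits were tested on simulated data. Of changes of 1 log2 unit, 69.7% were recovered with siNCOA4, 75.8% with DFO and 47.4% for the interaction. Of changes of 2 log2 units, 90.1%, 89.0% and 79.0% were recovered. Each simulation used normal noise and changed few of the 11924 genes, with siNCOA4 89 by 1 and 111 by 2 log2 units. In the data 1399 genes passed with siNCOA4 and 6365 with DFO, so recovery in the data can differ. Genes named were the members, up to 3 list genes per list and direction that passed with siNCOA4 or DFO, the 3 genes most like Nr1d1, Nr1d2 and Bhlhe40, and the checks Ncoa4 and Tfrc, with the results of 2 list genes not reported here. Alternatives were other pseudocounts, filters and scalings, a fold change threshold, a replicate block, fits limited to the 2 groups being compared, no trend, and leaving out each library. Promoters were read and figures drawn with Python 3.11.15, pandas 2.3.3 and matplotlib 3.10.9. With 3 libraries against 3, an exact two-sided permutation test cannot go below 0.1 and was not used.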

Additional observations from a re-analysis of the deposited data

Results flagged for a closer look

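Arntl had siNCOA4 differences of opposite direction without and with DFO. All 3 siNCOA4 libraries lay above all 3 siControl libraries in normal iron, and all 3 lay below them under DFO. Of all genes tested, 32.6% and 34.8% likewise had no overlap in these comparisons. The Arntl difference under DFO, -0.31, did not pass (limma, adjusted p = 0.25). The difference between the log2 fold changes with and without DFO was -0.99, which did not pass (limma, adjusted p = 0.0618).

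Of the 23 genes tested on the lists of other clock genes, 3 passed the test of that difference. Over all genes, 0.671% passed with a higher and 1.43% with a lower difference. Tef was listed as a PAR bZIP output factor, and Ccl2 and Il6 as output genes and REV-ERB targets. For Tef it was 1.26 (adjusted p = 8.74e-04), with a lower level in siNCOA4 in normal iron and no difference that passed under DFO. For Ccl2 it was -2.12 (adjusted p = 0.00351). Tef and Ccl2 kept their calls under all 20 alternatives run for them. For Il6 it was -3.93 (adjusted p = 0.0358), and this call was lost under 14 of 20 alternatives (adjusted p up to 0.0849), 10 of which left out 1 library. The siNCOA4 difference of Ccl2 passed in both directions (limma). It was 1.20 in normal iron (adjusted p = 0.00134) and -0.91 under DFO (adjusted p = 0.0059).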

How the results depend on the processing

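Of 60 member results, 37 kept their direction and their side of the threshold under all alternatives run for them, among them every Nr1d1 result. These were 21, less the fit of the compared groups alone for the interaction and the filter at an FPKM of 2, which removed Per2. With a fold change above 2 required, members passing were 2 with siNCOA4, 2 with both treatments, 2 with DFO in siNCOA4 cells and 1 with siNCOA4 among DFO-treated cells. A fit of the compared groups alone left 3 members passing with DFO in siNCOA4 cells and 3 other clock genes with siNCOA4. When 1 library was left out, members passing ranged from 3 to 8 with siNCOA4, from 3 to 5 with DFO in siNCOA4 cells and from 0 to 1 in the interaction, and other clock genes with siNCOA4 from 3 to 7. The largest adjusted p values of Csnk1e and Gsk3b with siNCOA4 were 0.0802 and 0.0985. Directions turned only in results that had not passed. Quantile normalization gave Per2 -0.049 with DFO in siNCOA4 cells, and Per2 -0.20 and Per3 -0.016 with siNCOA4 among DFO-treated cells. Leaving out 1 library gave ranges of -0.026 to 0.040 for Cry2 with siNCOA4, -0.21 to 0.090 for Per1 and -0.19 to 0.011 for Cry1 with DFO, -0.074 to 0.42 for Per2 with DFO in siNCOA4 cells, and -0.18 to 0.12 for Per1, -0.18 to 0.31 for Per2 and -0.036 to 0.26 for Per3 with siNCOA4 among DFO-treated cells. The cause was not tested. Over all genes, those passing with siNCOA4 went from 1399 to 724 and 858 without siNCOA4 replicates 2 and 3, and with siNCOA4 among DFO-treated cells from 1963 to 1149 in a fit of these groups alone and to 1201 and 1298 without siControl+DFO replicate 2 and siNCOA4+DFO replicate 3. For the interaction they went from 250 to 165 with quantile normalization, 164 without a trend and as few as 76 when 1 library, siControl+DFO replicate 1, was left out. Same-numbered libraries of different groups correlated at r between -0.127 and 0.116, with 2 of 12 libraries correlating best with their own number. The sample titles give only a replicate number, so whether these libraries were cultured together is not known. The replicate block left 6 members passing with siNCOA4, 5 with DFO and 4 with DFO in siNCOA4 cells, with Per2 (-1.01, adjusted p = 0.0615), Cry2 and Clock the members lost.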
